A study of Mus musculus with 6 samples.

Results

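The 9 transcription factor genes described here are Grhl1, Grhl2, Grhl3, Ovol1, Ovol2, Elf3, Ehf, Klf4 and Klf5, chosen by name as factors known for epithelial identity. They were represented by every probe set annotated to one of these symbols alone, which gave 19 of the 45037 probe sets and 9 of the 18193 genes of the table. RNA was compared between 344SQ cells that express the microRNA cluster miR-200b-200a-429 and 344SQ cells with a control vector, each as 3 cultures (A, B and C) with 1 array per culture. 344SQ is a mouse lung adenocarcinoma line of high metastatic potential, grown as a mass population from a subcutaneous tumor of 1 animal with the genotype p53R172H∆g/+ K-rasLA1/+, so cells of both groups carry these alleles. Both groups were lentivirally transduced, GFP-positive pools kept under puromycin. The labels name no separate transductions for the cultures, and p-values therefore measure only the spread between these cultures, which may be technical.

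Grainyhead-like factors (Grhl1 to Grhl3) are activators that open and switch on genes of cell junctions and of the epidermal barrier. Ovol1 and Ovol2 are zinc finger repressors that silence mesenchymal genes, Zeb1 among them. Elf3 and Ehf are members of the ETS family that are largely restricted to epithelia, and Klf4 and Klf5 are Kruppel-like zinc finger factors, of which Klf4 is tied to growth arrest and barrier formation and Klf5 to proliferating epithelial cells. MicroRNAs of the miR-200 family bind transcripts through their seed and are best known for repressing Zeb1 and Zeb2, which in turn repress epithelial genes.

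The mature microRNAs of the cluster are shown because their seed sets which transcripts they can pair with. The sequences are those of RefSeq on GRCm38.p6, all from the minus strand of chromosome 4, written 5′ to 3′ with the seed, bases 2 to 8, in capitals.
mmu-miR-200b-3p: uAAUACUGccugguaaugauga
mmu-miR-429-3p: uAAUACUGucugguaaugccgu
mmu-miR-200a-3p: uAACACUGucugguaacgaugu
mmu-miR-200b-3p and mmu-miR-429-3p share the seed AAUACUG, and mmu-miR-200a-3p has AACACUG. The levels of these microRNAs were not analysed here.

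Values are log2 signals per probe set after quantile normalization, and differences are miR-200 minus control from limma with their standard error. A signal of 5.28 served as a background gauge. It is the highest normalized value of the 3 control probe sets for bacterial trp. Probe sets differ in how strongly they bind, so signals are compared between arrays and not between genes. The arrays miR-200 A and control B stood apart from the others of their groups, with deviations from the group means that correlated at 0.71. The median of 11 proliferation genes was 9.0 on miR-200 A against 12.11 and 12.22 on miR-200 B and C, and 9.08 on control B against 11.77 and 11.72 on control A and C. The part of this gap in the results was not tested, and values with and without these arrays are given for the genes that follow them and for those whose groups did not overlap. All 6 epithelial markers, Cdh1, Epcam, Krt7, Krt8, Krt18 and Krt19, lay above the gauge on all arrays. Of the other markers, 4 of 7 lung lineage, 3 of 8 fibroblast, 5 of 8 blood and 2 of 6 endothelial genes did so, and the alveolar surfactant gene Sftpc and the club cell gene Scgb1a1 lay under it on every array. At an adjusted p under 0.05, 2 of the 7 lung lineage genes were lower and 0 higher, against 0.671% and 0.275% of all genes. These were Sftpb (-6.03 ± 0.22, adjusted p = 0.00249, limma) and Aqp5 (-1.46 ± 0.12, adjusted p = 0.0148). Both were named after their values were seen.

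None of the 9 genes passed the test over the whole table (limma). Grhl3 and Klf4 read lower in every miR-200 culture than in any control culture. One probe set each of Grhl2 and Klf5 read higher in every miR-200 culture, but the other probe sets of these genes did not. For Grhl1, Elf3, Ehf, Ovol1 and Ovol2 the groups overlapped on every probe set.

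In counts, 0 of the 19 probe sets were called higher and 0 lower at an adjusted p under 0.05 (limma, Benjamini-Hochberg over 45037 probe sets), against 0.258% and 0.486% of all probe sets. Before adjustment, a p under 0.05 was reached by 1 higher and 3 lower probe sets, against shares of 7.18% and 6.93% in the whole table. The groups did not overlap for 2 probe sets with higher and 3 with lower values, against 11.6% and 9.76% in the whole table. Without a threshold, 10 of the 19 differences were above 0 and 9 below. The median difference over the 9 genes, each by its brightest probe set, was 0.03, against 0.0014 over all genes.

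**Figure D1:**
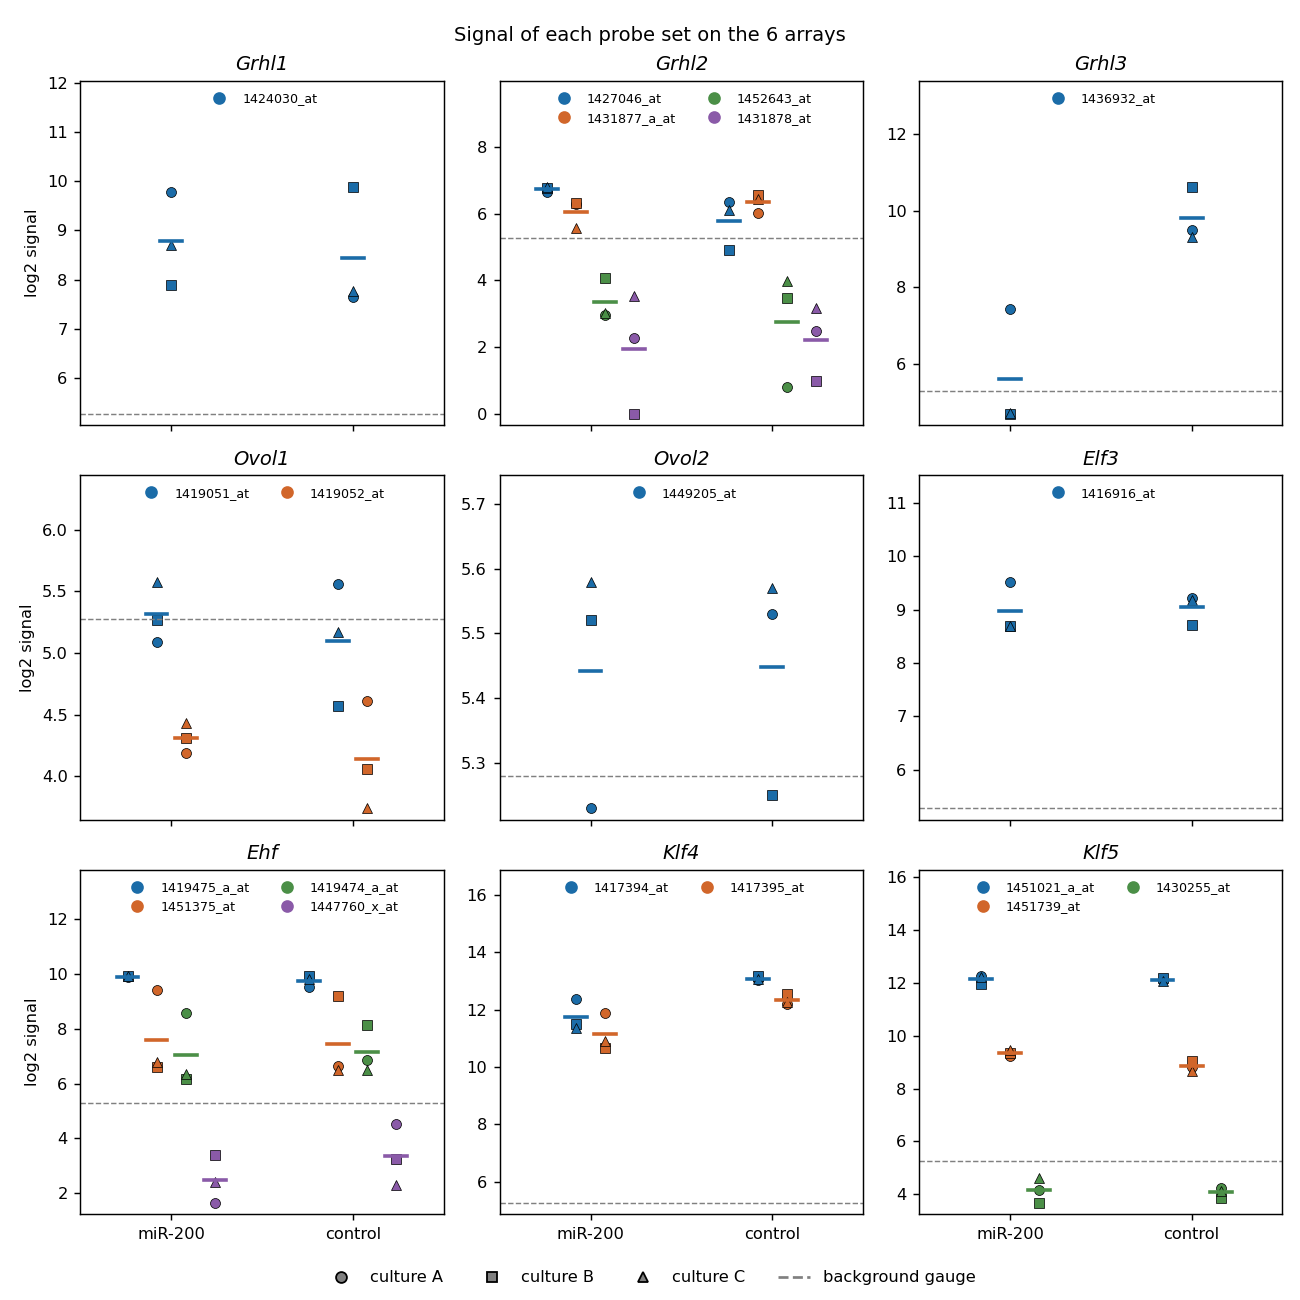
Log2 signal (y axis, own scale in each panel) of each probe set of the 9 genes in miR-200 and control cultures. Points are single arrays with a marker per culture letter, short lines are group means (n = 3), and the dashed line is the background gauge of 5.28. Grhl3 and both Klf4 probe sets have all 3 miR-200 points below all 3 control points.

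Grhl3, known in mice as a factor of epidermal barrier formation and neural tube closure, had the most negative difference of the 19 probe sets. Its single probe set, 1436932_at, read 7.43, 4.69 and 4.71 in miR-200 A, B and C, against 9.5, 10.62 and 9.32 in control A, B and C. The groups lay far apart, yet the miR-200 cultures were themselves uneven: miR-200 B and C were under the background gauge and miR-200 A was well above it. The means were 5.61 ± 1.58 in miR-200 cells and 9.81 ± 0.71 in control cells (SD, n = 3 each), a difference of -4.20 ± 0.85 (log2 ± SE; 95% interval -6.33 to -2.08) with an adjusted p of 0.125 (limma). As only 1 of the 3 miR-200 arrays measured the gene above the gauge, the fold is given as a bound: with miR-200 B and C set to the gauge, it was at least 14.1-fold lower. In bulk RNA, fewer cells that express a gene and less RNA per cell cannot be told apart.

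The call for Grhl3 changed with the arrays used and with the settings. Without miR-200 A the fitted difference was -5.11 ± 0.45 with an adjusted p of 0.0374 (limma), and without both miR-200 A and control B it was -4.71 ± 0.11 with an adjusted p of 0.0480. Both rest on miR-200 values under the gauge, against which Grhl3 was at least 23.2-fold and at least 17.5-fold lower. With all arrays kept it also passed once the dimmest 40% were left out (adjusted p = 0.0459), with array weights (adjusted p = 0.0246) and with a 2-level term for the arrays that stood apart (adjusted p = 0.0257). The arrays that stood apart were picked from the same values that are tested. The p-values without them or with the term are therefore smaller than they should be. Between these arrays, miR-200 A minus control B, the difference of Grhl3 was -3.19, with no test. The difference kept its sign in all 16 alternative settings and ranged from -5.11 to -3.74, with adjusted p from 0.000713 to 0.862, 6 of them past the threshold.

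Klf4, which in epithelia of gut and skin accompanies exit from the cell cycle, showed the same order on both of its probe sets. Probe set 1417394_at read 12.38, 11.51 and 11.36 in miR-200 A, B and C, against 13.01, 13.17 and 13.05 in control A, B and C. The control cultures were within 0.2 of each other, and miR-200 A was the miR-200 culture nearest to them. The difference was -1.33 ± 0.29 (95% interval -2.07 to -0.60), or 2.52-fold lower, with an adjusted p of 0.145 (limma).

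The second probe set of Klf4, 1417395_at, read 11.87, 10.67 and 10.89 in miR-200 A, B and C, against 12.20, 12.54 and 12.27 in control A, B and C, again without overlap. Its difference was -1.19 ± 0.34 with an adjusted p of 0.230 (limma). On both Klf4 probe sets the highest value of each group was on miR-200 A and control B. The platform annotation ties both probe sets to the same transcript record, so they are not independent evidence. Without miR-200 A, probe set 1417394_at differed by -1.65 ± 0.13 with an adjusted p of 0.0352. Without miR-200 A and control B it differed by -1.60 ± 0.11 and did not pass (adjusted p = 0.0649), and 1417395_at by -1.46 ± 0.13 (adjusted p = 0.0786). The limit named for the p-values of Grhl3 without these arrays holds here too. Over all 16 alternatives 1417394_at ranged from -1.65 to -1.14, with adjusted p from 0.00625 to 1, and passed in 4. Probe set 1417395_at ranged from -1.56 to -0.96 and passed in 1.

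Promoters were available from RefSeq (GRCm38.p6) for 5 of the 9 genes, 6 promoters in all, each covering 250 bases before and 50 after a start site. Those of Grhl3 and Klf4 are printed because these genes were lowest in miR-200 cells relative to control. Motifs were searched on both strands: CACCTG, the E-box letters known for Zeb and Snail factors, AACNGGTT for grainyhead-like factors, and GGGNGTGG for Kruppel-like factors. Matches are in capitals.
Grhl3, chr4:135573583-135573882, minus strand: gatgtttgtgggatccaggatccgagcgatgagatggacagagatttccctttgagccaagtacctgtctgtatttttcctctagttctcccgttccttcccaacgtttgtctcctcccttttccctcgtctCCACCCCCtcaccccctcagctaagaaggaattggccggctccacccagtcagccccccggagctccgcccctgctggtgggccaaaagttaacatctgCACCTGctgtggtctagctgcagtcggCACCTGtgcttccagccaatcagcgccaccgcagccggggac
Klf4, chr4:55532426-55532725, minus strand: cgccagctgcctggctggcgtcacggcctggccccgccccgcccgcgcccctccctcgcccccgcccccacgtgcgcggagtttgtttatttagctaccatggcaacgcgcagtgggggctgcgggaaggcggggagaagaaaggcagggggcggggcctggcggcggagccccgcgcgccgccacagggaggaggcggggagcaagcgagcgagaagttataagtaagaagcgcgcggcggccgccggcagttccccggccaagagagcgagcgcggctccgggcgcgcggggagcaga
The Grhl3 promoter held CACCTG at 2 places, starting at positions -19 and 9 from the start site, and GGGNGTGG at 1, on the other strand at -118, with no overlap between motifs. The Klf4 promoter held none of the 3. CACCTG also occurred once in the Elf3 promoter, at -140, and in none of the promoters of Grhl1 and Ovol2. Of 32851 promoters of this length, 20.2% held CACCTG, 2.09% AACNGGTT and 17.6% GGGNGTGG. A match describes the letters alone.

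**Figure D2:**
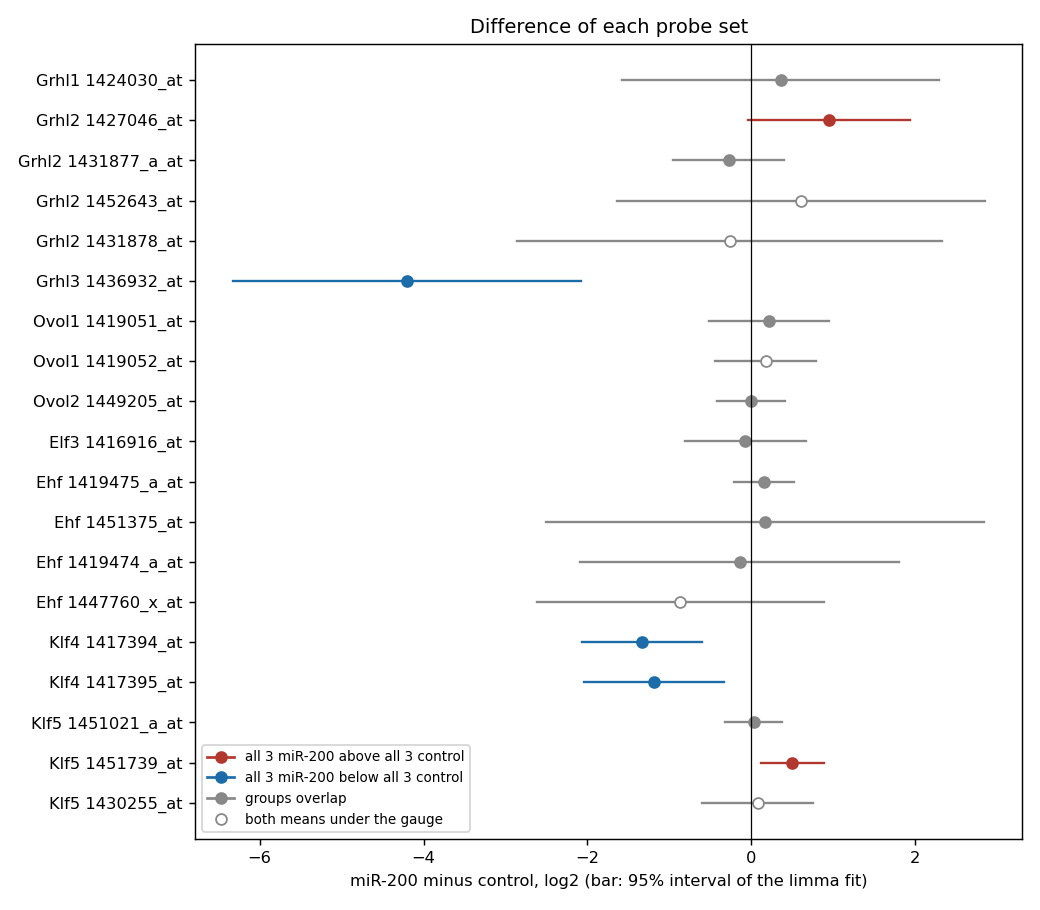
Difference between miR-200 and control cells (x axis, log2) for each of the 19 probe sets, with the 95% interval of the limma fit as a bar and colours for whether the groups overlap. Open points have both group means under the background gauge. Grhl3 has the most negative difference, with an interval from -6.33 to -2.08.

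Grhl2 is the member of its family most widely needed in epithelia, where it keeps Cdh1 and claudin genes active. Its brightest probe set, 1427046_at, read 6.66, 6.76 and 6.80 in miR-200 A, B and C, against 6.36, 4.91 and 6.12 in control A, B and C. The miR-200 cultures were close together and above every control culture, and control B was under the gauge. The difference was 0.95 ± 0.40 (95% interval -0.05 to 1.94) with an adjusted p of 0.373 (limma). Without control B it was 0.50, the lowest value among the 16 alternatives, and without control B and miR-200 A it was 0.54 ± 0.13 (adjusted p = 0.183).

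The next Grhl2 probe set, 1431877_a_at, gave the opposite sign. It read 6.30, 6.33 and 5.56 in miR-200 A, B and C, against 6.03, 6.55 and 6.43 in control A, B and C, a difference of -0.28 ± 0.27 (adjusted p = 0.704, limma). The groups overlapped there, and without miR-200 C the difference was -0.03. The remaining 2 probe sets of Grhl2, 1452643_at and 1431878_at, were under the gauge on all 6 arrays. Averaged over its 4 probe sets, Grhl2 differed by 0.25 ± 0.31 (adjusted p = 0.764), against 0.95 for the brightest alone.

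Grhl1, which in mouse skin supports desmosomal cadherin expression, read highest on the arrays that stood apart. Probe set 1424030_at read 9.78, 7.89 and 8.70 in miR-200 A, B and C, against 7.65, 9.88 and 7.77 in control A, B and C. The highest value of each group came from miR-200 A and control B, the arrays with the low proliferation genes. The difference was 0.36 ± 0.78 (95% interval -1.58 to 2.30, adjusted p = 0.879, limma), and 0.59 ± 0.34 without both arrays (adjusted p = 0.426). The interval covers changes of over 1 in either direction, so the data do not show that Grhl1 is alike in both groups.

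Ovol1 and Ovol2 were at the edge of detection. Ovol2, a repressor of Zeb1 in mouse mammary epithelium, read 5.23, 5.52 and 5.58 in miR-200 A, B and C, against 5.53, 5.25 and 5.57 in control A, B and C on probe set 1449205_at. These values straddle the gauge, and the difference was -0.0063 ± 0.17 (95% interval -0.42 to 0.41, adjusted p = 0.996, limma). The brighter probe set of Ovol1, a regulator of epidermal and germ cell differentiation in mice, lay above the gauge on 1 miR-200 and 1 control array. That probe set, 1419051_at, differed by 0.22 ± 0.29 (adjusted p = 0.791). The other, 1419052_at, was under the gauge on all arrays. A change in RNA that stays under the background would not be visible for either gene.

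Elf3, an ETS factor of gut and lung epithelium, lay above the gauge on all arrays. Probe set 1416916_at read 9.53, 8.69 and 8.69 in miR-200 A, B and C, against 9.22, 8.72 and 9.19 in control A, B and C. The groups overlapped, and the arrays that stood apart ordered opposite to the others: miR-200 A minus control B was 0.81, whereas the other arrays gave -0.52 ± 0.09 (adjusted p = 0.136, limma). Over all arrays the difference was -0.07 ± 0.30 (95% interval -0.81 to 0.67, adjusted p = 0.944).

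Ehf, like Elf3 an ETS factor of epithelia, gave different pictures on its probe sets. The brightest, 1419475_a_at, read 9.88, 9.93 and 9.91 in miR-200 A, B and C, against 9.53, 9.92 and 9.81 in control A, B and C, with a difference of 0.15 ± 0.15 (95% interval -0.22 to 0.52, adjusted p = 0.695, limma). It was flat across cultures. Probe set 1451375_at, in contrast, read 9.41, 6.61 and 6.79 in miR-200 A, B and C, against 6.64, 9.18 and 6.48 in control A, B and C. Like Grhl1, it was high on miR-200 A and control B, with gaps of over 2 to every other array.

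Ehf probe set 1419474_a_at had the same order, with 8.56, 6.18 and 6.35 in miR-200 A, B and C, against 6.88, 8.13 and 6.5 in control A, B and C. The group differences of 1451375_at and 1419474_a_at were 0.17 ± 1.07 and -0.14 ± 0.78 (adjusted p of 0.967 and 0.961, limma). Without miR-200 A and control B they were 0.14 ± 0.13 and -0.43 ± 0.19 (adjusted p of 0.601 and 0.328). The dimmest, 1447760_x_at, was under the gauge on all arrays. Which transcript forms these probe sets read was not analysed here. On the same arrays Lcn2, an antimicrobial gene listed as a target of these factors and named after its values were seen, read 13.12 on miR-200 A against 9.82 and 9.38 on miR-200 B and C, and 12.62 on control B against 9.65 and 9.97 on control A and C.

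**Figure D3:**
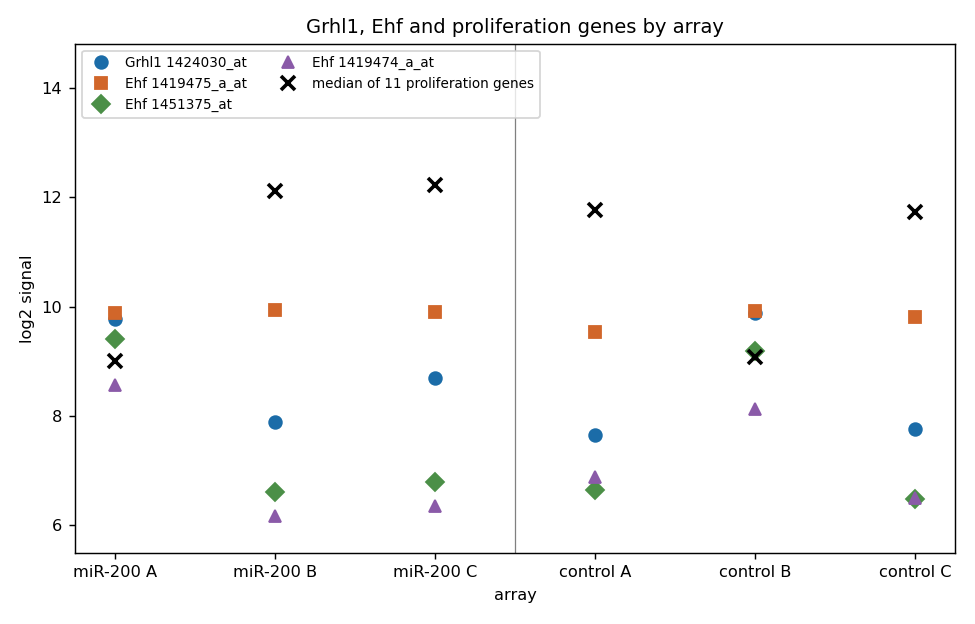
Log2 signal (y axis) of the Grhl1 probe set, 3 Ehf probe sets and the median of 11 proliferation genes on each of the 6 arrays (x axis). Grhl1 and 2 of the Ehf probe sets have their highest values of each group on miR-200 A and control B, where the proliferation median is 9.0 and 9.08, and Ehf 1419475_a_at lies between 9.53 and 9.93 throughout. Grhl3, both Klf4 probe sets and Klf5 1451021_a_at, not drawn here, also have their highest value of each group on these arrays.

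Klf5, a promoter of proliferation in gut and airway epithelium, was strongly detected in both groups. Its brightest probe set, 1451021_a_at, read 12.26, 11.95 and 12.20 in miR-200 A, B and C, against 12.09, 12.19 and 12.05 in control A, B and C. The difference was 0.03 ± 0.14 (95% interval -0.32 to 0.38, adjusted p = 0.950, limma), and it changed sign when the arrays were used as deposited or centred on their medians. The interval covers changes of at most 0.38 in size.

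Probe set 1451739_at of Klf5 read 9.25, 9.35 and 9.44 in miR-200 A, B and C, against 8.81, 9.06 and 8.67 in control A, B and C, without overlap. The difference was 0.50 ± 0.15 (95% interval 0.12 to 0.88) with an adjusted p of 0.251 (limma), and it stayed between 0.36 and 0.65 in all 16 alternatives. Without miR-200 A and control B it was 0.65 ± 0.11 (adjusted p = 0.134). The last Klf5 probe set, 1430255_at, was under the gauge on all arrays. Averaged over its 3 probe sets, Klf5 differed by 0.20 ± 0.15 (adjusted p = 0.599).

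**Figure D4:**
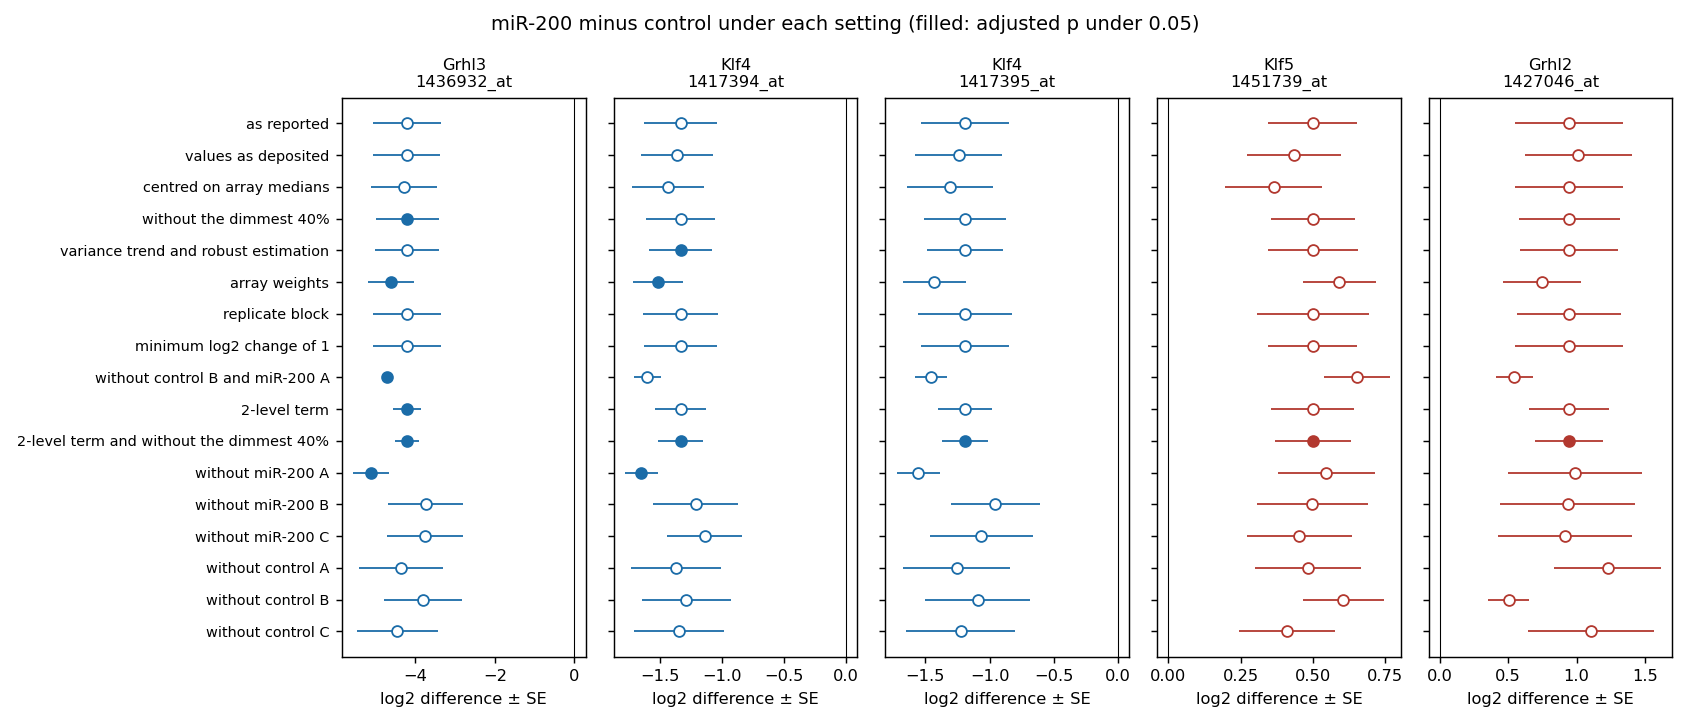
Difference between miR-200 and control cells (x axis, log2, bar: standard error) for the 5 probe sets whose groups do not overlap, in the reported fit and in 16 alternative settings (rows). Filled points have an adjusted p under 0.05. Grhl3 is filled in 6 alternatives, Klf4 1417394_at in 4, and the other 3 in 1 each, and none changes sign.

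Zeb1 and Zeb2, the repressors whose E-box is marked above, read lower in all 3 miR-200 cultures without passing, by -1.08 ± 0.34 and -0.85 ± 0.22 (adjusted p of 0.255 and 0.195, limma). Of the 7 listed repressors of epithelial genes, 0 were higher and 0 lower past the threshold, against 0.275% of all genes higher and 0.671% lower. Before adjustment 3 were lower with a p under 0.05, against 8.47% of all genes. Twist1 was among these (adjusted p = 0.347), with both group means under the gauge. The list's median difference was -0.33.

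Among 22 measured relatives of the 9 factors, 0 passed in either direction (limma), against 0.275% of all genes higher and 0.671% lower. With no adjustment, 2 were higher and 1 lower at a p under 0.05, against 6.35% and 8.47% of all genes, and the list's median was 0.16. The lower one was Tfcp2l1, a distant relative of the grainyhead-like factors known from mouse embryonic stem cells and kidney ducts. It read 7.63, 6.77 and 6.88 in miR-200 A, B and C, against 9.0, 9.71 and 8.79 in control A, B and C, a difference of -2.07 ± 0.35 (adjusted p = 0.0870). As with Grhl3, the groups were apart, and the highest value of each group was on miR-200 A and control B. The higher ones were Klf13, known from T lymphocytes (0.42 ± 0.12, adjusted p = 0.231), and Klf2, known from blood vessel endothelium (0.78 ± 0.25, adjusted p = 0.263).

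Of 15 other epithelial and endodermal transcription factors measured, 0 passed (limma), with 1 higher and 1 lower before adjustment, against 6.35% and 8.47% of all genes, and a median of -0.14. The 3 with the smallest p were Cdx2, an intestinal homeobox factor (-0.80 ± 0.18, adjusted p = 0.157), the endoderm factor Foxa1 (0.46 ± 0.16, adjusted p = 0.294) and Pitx1, a homeobox factor of hind limb and pituitary, with both means under the gauge (adjusted p = 0.508).

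Of 17 measured genes known to depend on grainyhead-like factors, 4 rose and 0 fell past the threshold (limma), against 0.275% and 0.671% of all genes. Without adjustment 7 were higher and 1 lower, against 6.35% and 8.47%, and the median difference was 0.42. Dsg1a, whose difference is this median, and Arhgef19, the 1 lower, were under the gauge on all 6 arrays. The splicing factor gene Esrp1 read 9.64, 8.90 and 9.23 in miR-200 A, B and C, against 2.68, 3.49 and 2.68 in control A, B and C, all under the gauge. Against the gauge it was at least 15.8-fold higher (adjusted p = 0.00389), the tight junction gene Cldn4 at least 15.6-fold (adjusted p = 0.0217) and the vesicle transport gene Rab25 at least 7.96-fold (adjusted p = 0.00776), with all control values of these genes under the gauge. Cldn3, another tight junction gene, differed by 3.93 ± 0.29 (adjusted p = 0.0112). The list was written with earlier results of these data known, so its count is not independent evidence. Cdh1, a textbook target of Grhl2 that was named after its values were seen, read 13.32 ± 0.12 in miR-200 cells and 13.22 ± 0.13 in control cells (SD, n = 3 each; adjusted p = 0.804).

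Of 16 measured genes known as targets of Elf3, Ehf, Klf4 or Klf5, 2 rose and 0 fell (limma), against 0.275% and 0.671% of all genes. Before adjustment 3 were higher and 3 lower, against 6.35% and 8.47%, and the median was 0.07. Cldn7, a tight junction gene, differed by 4.24 ± 0.36 and the mucin gene Muc1 by 1.97 ± 0.17, with adjusted p of 0.0162 and 0.0171. Sprr1a was the other gene higher before adjustment (1.06 ± 0.23, adjusted p = 0.139, limma). The 3 lower before adjustment were Alpi (-1.80 ± 0.35), Krt13 (-1.24 ± 0.32) and Krt19 (-0.39 ± 0.14). Their adjusted p were 0.1135, 0.1944 and 0.3145 (limma). This list too was written with earlier results of these data known, so its count is not independent evidence.

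**Figure D5:**
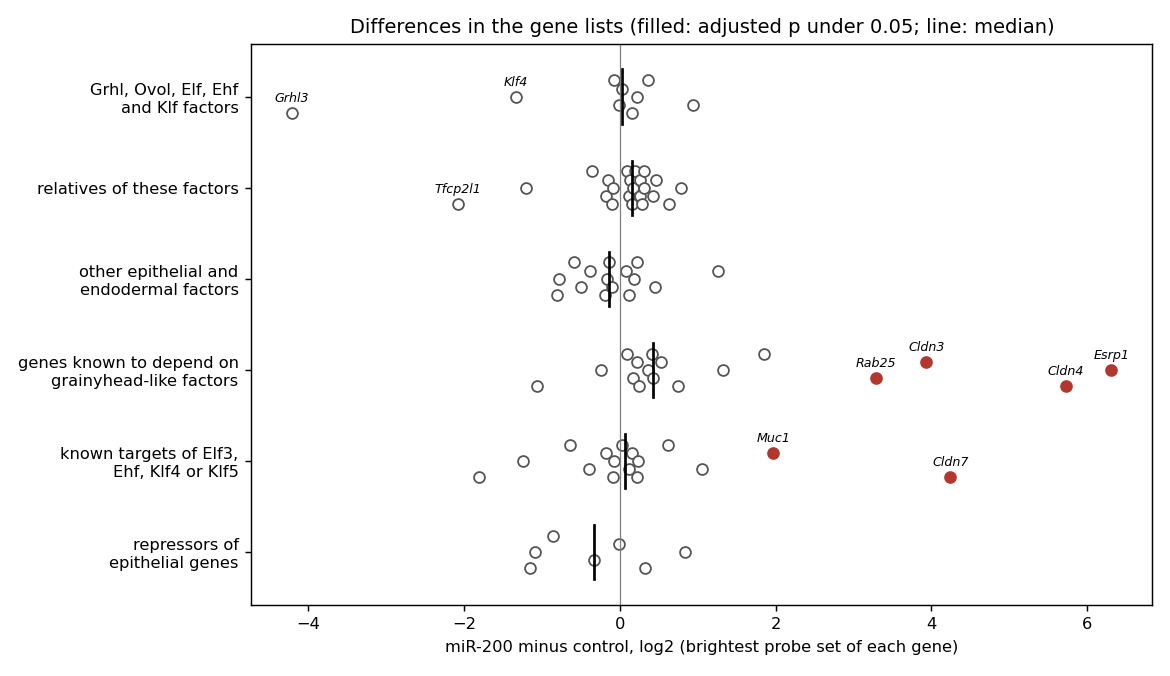
Difference between miR-200 and control cells (x axis, log2) for each measured gene of 6 lists (rows), by its brightest probe set, with vertical lines at the medians. Filled points, with an adjusted p under 0.05, are 4 genes known to depend on grainyhead-like factors and 2 known targets of Elf3, Ehf, Klf4 or Klf5, and no point of the 9 factors is filled.

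The genes with the most similar profile over the 6 arrays were taken among 13344 genes with a mean above the gauge, as a description with no test, since with so few arrays some gene will match any profile closely. Grhl3 was most like the semaphorin gene Sema3e and the kinase gene Hipk2, with Pearson r of 0.9996 and 0.9991, and of 0.9985 and 0.9984 without miR-200 B and C, the 2 arrays farthest from its median. Klf4 was most like Akr1c13 and Arhgap29, with r of 0.9988 for both. Grhl1 was most like Ap1g1 and Wdr24 (r of 0.9978 and 0.9961), and Grhl2 most like Skp1 and Pgam1 (r of 0.9958 and 0.993). Elf3 was most like Rbm47 and Igsf1 (r of 0.9871 and 0.9806), Ehf most like Secisbp2 and Epb41l3 (0.9927 and 0.9902), and Klf5 most like Klhdc3 and Plod3 (0.9876 and 0.9682). For Ovol1 they were Rlim and Mtch1 (0.9909 and 0.9892), and for Ovol2 Mrpl9 and Fignl1 (0.9971 and 0.997), with the signals of both factors near the gauge. Without the 2 arrays farthest from the median, r was 0.907 and 0.8177 for the genes most like Ovol2 and 0.8763 and 0.7582 for those most like Ehf.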

How the data were processed

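Per the labels' protocols, total RNA was made into biotin-labelled cRNA and hybridized to Affymetrix mouse arrays. The values deposited are on a log2 scale with 1 signal for each probe set on an array; the base follows from the values, since 2 to the power of each has 2 decimals. The sources used here do not give how the authors summarised and normalized them. As medians spanned 0.0924 and interquartile ranges 0.174, limma 3.58.1 in R 4.3.3 was used for quantile normalization of all 6 arrays, and 64 control probe sets were left out. The number of arrays, 3 per group, limits the precision.

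Symbols came from the platform annotation: 34945 probe sets had 1 symbol, 932 several and 9160 none listed, and 34741 were matched by gene number to RefSeq. The fit was limma's lmFit and eBayes over 45037 probe sets, two-sided, with Benjamini-Hochberg adjustment and a threshold of 0.05. It was also run on simulated data with independent noise on each array. Those data lack the deviation that miR-200 A and control B share, so the error rate in the real data was not tested. The brightest probe set stands for the gene. Named were all members, then in each list the genes past the threshold or else the 3 of smallest p, and Zeb1 and Zeb2. Sftpb, Aqp5, Cdh1, Lcn2, Dsg1a, Arhgef19 and the differences of Sprr1a, Alpi, Krt13 and Krt19 were added after their values were seen. Members, lists and alternatives were chosen with earlier results of these data known. Alternatives changed the normalization, filter, variance model, weights, block and arrays used.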

Additional observations from a re-analysis of the deposited data

How the results depend on the processing

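The 19 probe sets gave 290 values under the alternatives. Of these, 245 kept the direction and side of the threshold of the reported fit, 13 kept the direction and passed, and 32 changed sign, none of them past the threshold in either setting. The reported count of 0 of 19 probe sets past the threshold changed with the setting. Percentages in brackets give the share called among all probe sets tested in that setting. The count became 1 of the 12 kept without the dimmest 40% (Grhl3, against 3.42%). With a variance trend and robust estimation together it was 1 (Klf4, against 2.11%), and with array weights 2 (Grhl3 and Klf4, against 2.87%). Without control B and miR-200 A it was 1 (Grhl3, against 0.229%), as with a 2-level term for them (Grhl3, against 2.1%). It became 5 of the 12 kept with that term and without the dimmest 40%, a pair of choices added with the data known. These were all 5 probe sets whose groups do not overlap. Of the 27022 probe sets kept from the whole table, 17.0% were so called. The term and the choice to leave out miR-200 A and control B were read from the same values that are tested. This makes the p-values smaller than they should be, by how much is unknown. Without 1 array the count ranged from 0 to 2, with calls (Grhl3 and Klf4 1417394_at) only without miR-200 A. In that setting 0.728% of all probe sets were called. With the letter as a replicate block it was 0 (limma; 3 at an unadjusted p under 0.05), as for the whole table, and the adjusted p of Grhl3 was 0.375. Arrays of the same letter had deviations that correlated at -0.58 (A), -0.67 (B) and 0.43 (C). Deviations within a group sum to 0, and those of miR-200 A and control B correlated at 0.71. The same-letter values therefore cannot tell whether the letters pair the cultures. Of 45037 probe sets, 335 were called in the reported fit, against 951 with a variance trend and robust estimation and 1291 with array weights. The 2-level term gave 946 and a minimum log2 change of 1 gave 78. Without miR-200 A and control B 103 were called, and without 1 array 32 to 328. Of the 27022 kept without the dimmest 40%, 923 were called, and 4606 with the 2-level term as well.

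Among single probe sets, the sign changed only where the difference was smaller than its standard error in the reported fit. The largest such difference was 0.61 ± 0.90, for Grhl2 1452643_at. Ovol2 gave 0.052 as deposited, 0.0034 with array weights and 0.0003 without both arrays. Ehf 1451375_at gave -0.0037 with array weights, and the mean of the Ehf probe sets gave -0.17. Klf5 1451021_a_at gave -0.013 as deposited, -0.084 centred and -0.022 with array weights, and 1430255_at gave -0.10 with array weights and -0.030 without both arrays. Without 1 array the differences ranged from -0.14 to 1.08 for Grhl1, -0.37 to 1.23 and -1.07 to 0.71 for Grhl2 1452643_at and 1431878_at, -0.047 to 0.45 and -0.023 to 0.41 for Ovol1 1419051_at and 1419052_at, -0.11 to 0.10 for Ovol2, -0.35 to 0.068 for Elf3, -0.73 to 1.04 and -0.91 to 0.34 for Ehf 1451375_at and 1419474_a_at, and -0.030 to 0.12 and -0.15 to 0.31 for Klf5 1451021_a_at and 1430255_at. The cause was not tested. Signals near the gauge limit Ovol1, Ovol2 and the low group of Grhl3.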
